A study of Mus musculus and Meriones unguiculatus with 4 samples.

Results

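The 8 genes described here encode transcription factors of the dental epithelium: Pitx1, Tbx1, Irx1, Trp63, Foxi3, Isl1, Sox2 and Sox9. They were chosen by gene symbol, and each was on 1 row of the mouse table and 1 row of the gerbil table. They are 8 of 13321 genes that could be matched by symbol between the tables, and all 8 were among the 10328 genes left after a filter on low levels. RNA came from the enamel knot region of wild-type tooth germs, cut out of frozen sections of fixed tissue by laser microdissection. There were 2 samples from mouse embryos at embryonic day 13 and 2 from gerbil (Meriones unguiculatus) embryos at embryonic day 15, all labelled as epithelial cells and wild type, and the labels name no treatment. How many animals a sample holds is not stated, so the spread between libraries may be technical.

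Tooth germs form where the oral epithelium thickens and grows into the jaw mesenchyme, and the enamel knot is the non-dividing signalling centre that later forms in that epithelium. Transcription factors set up this epithelium at several levels. p63, the product of Trp63, keeps ectodermal epithelium able to stratify, and Foxi3 is a forkhead factor of ectodermal placodes. Pitx1 and Tbx1 are homeodomain and T-box factors of the oral and dental epithelium, while Irx1 belongs to the Iroquois homeodomain family. Sox2 is known from progenitors of the dental lamina, Sox9 from epithelial stem cells and cartilage, and Isl1, a LIM homeodomain factor, from the epithelium of the incisor as well as from neurons.

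The mouse libraries are called PEK and SEK here, and the gerbil libraries E21 and E23, after parts of their column names. What these names stand for is not explained, so it is unknown whether the libraries of one species are replicates or come from different stages or regions. A level is a gene's length-normalised value, rescaled so that the matched genes of a library sum to 1000000. Differences are given as gerbil minus mouse on the scale of log2(level + 1), after a trend with transcript length had been removed from each library. They understate the change of genes at low level. To be called, a gene had to differ by 2-fold or more between the nearest libraries of the 2 species. No significance test was made between species, since the authors normalized the 2 tables separately, and 2 against 2 libraries could not give an exact two-sided p below 0.333. Species, embryonic day and table cannot be told apart, and in bulk tissue neither can fewer cells of a type and less RNA per cell.

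The mouse table had 27632 rows and that of gerbil 25745, and the depth behind the values is unknown for mouse and is not given here for gerbil. All 16 epithelial markers were above 0 in all 4 libraries, with summed levels of 6934 to 10127. The sums of the 11 measured enamel knot markers were 5160 in mouse PEK, 2748 in SEK, 1825 in gerbil E21 and 1746 in E23. These markers did not all differ alike. Of the 11, 4 were called higher in mouse, 0 higher in gerbil and 7 neither, beside 15.0% and 13.5% of all genes. Cdkn1a was at 1565 and 1019 in mouse and 60.0 and 37.1 in gerbil. The knot signal gene Shh was at 946 and 609 in mouse and 963 and 1186 in gerbil. Markers of other cells were present in all libraries. The 18 mesenchyme markers summed to between 1664 and 4186. Lower sums were those of muscle (7.01 to 468), cartilage (126 to 382), endothelium (41.4 to 219), neurons (17.6 to 61.6), Schwann cells and neural crest (23.1 to 111) and blood (1.99 to 30.4). Egfl7 was the largest part of each endothelium sum, at 106, 189, 33.7 and 53.4 in PEK, SEK, E21 and E23.

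Tbx1 had the widest species difference of the 8, and the deposited mouse locus bears on its promoter, so the stretches before its 2 RefSeq start sites (GRCm38.p6) are shown. The mouse table places Tbx1 (ENSMUSG00000009097) on the minus strand of chromosome 16, positions 18581256 to 18588952. The 5′ end of that locus lies 53 bases upstream of the RefSeq start site at 18588899 and 1719 bases downstream of the other, at 18590671. The first stretch ends where the deposited locus begins and holds 197 bases (chr16:18588953-18589149), and the second holds the 250 bases before the upstream start (chr16:18590672-18590921). Both are on the minus strand, 5′ to 3′, with a GC box in capitals.
Tbx1 downstream start: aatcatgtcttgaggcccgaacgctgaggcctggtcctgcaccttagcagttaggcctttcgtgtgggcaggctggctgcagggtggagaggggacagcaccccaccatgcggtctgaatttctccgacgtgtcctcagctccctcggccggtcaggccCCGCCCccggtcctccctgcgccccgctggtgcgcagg
Tbx1 upstream start: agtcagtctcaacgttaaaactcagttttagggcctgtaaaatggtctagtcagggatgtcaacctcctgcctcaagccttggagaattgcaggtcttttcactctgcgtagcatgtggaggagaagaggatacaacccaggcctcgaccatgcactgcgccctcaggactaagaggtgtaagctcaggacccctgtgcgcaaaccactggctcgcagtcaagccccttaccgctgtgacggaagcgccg
The motifs searched on both strands were the GC box GGGCGG, the Pitx motif TAATCC, the Lef/Tcf motif CTTTGA and the TATA box TATAAA, and none overlapped another. The GC box was in the first stretch only, and 24.1% of 32851 RefSeq promoter entries hold it in a stretch of 197 bases, or 32.7% in 250 bases. The letters of the other 3 motifs were in neither stretch, against 5.11%, 11.7% and 9.05% of entries for the Pitx, Lef/Tcf and TATA motifs at 197 bases and 6.25%, 13.8% and 12.4% at 250 bases.

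Pitx1 and Tbx1 were higher in mouse. Foxi3 was called higher in gerbil only with the length correction, and the other 5 genes met neither criterion. The 2 calls toward mouse are 2 of 8 genes, where 15.0% of all measured genes were called higher in mouse. The call toward gerbil is 1 of 8, where 13.5% were called higher in gerbil. The 8 genes had a median log2 difference of -0.57, beside -0.01 for all genes measured.

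**Figure D1:**
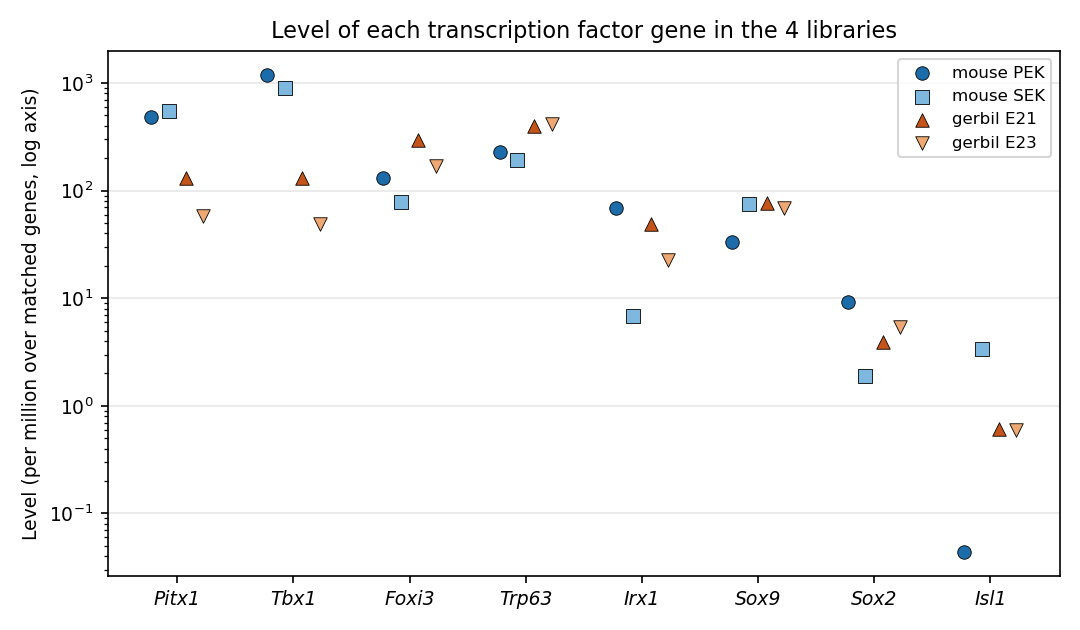
Level of each of the 8 genes (scaled to 1000000 over the matched genes, log axis) in mouse PEK, mouse SEK, gerbil E21 and gerbil E23, 1 point per library. Both mouse points lie above both gerbil points for Pitx1 and Tbx1, and below them for Foxi3 and Trp63.

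Pitx1 was at 482 in mouse PEK and 545 in SEK, and at 131 and 58.2 in gerbil E21 and E23. Both mouse libraries were above both gerbil libraries, and gerbil E23 was the lowest. Its log2 difference was -2.68 ± 0.54 (SE, n = 2 each), 6.43-fold higher in mouse on that scale. Tbx1 was at 1197 and 902 in mouse and at 131 and 49.0 in gerbil, with no overlap. Its log2 difference was -3.97 ± 0.69, 15.7-fold higher in mouse. In mouse, Tbx1 ranked at the 99.0 percentile of the measured genes in PEK and the 98.3 percentile in SEK, against 81.9 and 52.8 in gerbil. The rank of Pitx1 was at the 96.9 and 96.5 percentiles in mouse and 81.7 and 58.2 in gerbil. A rank within a library does not use the scaling between the tables, but it carries no length correction.

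Both calls held without the length correction, at -3.16 for Pitx1 and -4.29 for Tbx1, and there 19.5% of all genes were called higher in mouse. Without gerbil E23, the Tbx1 difference was -3.25 and that of Pitx1 was -2.15, and without gerbil E21 they were -4.65 and -3.20. With the bases by which the deposited mouse loci reach beyond the annotated genes added to the lengths, the Pitx1 difference was -4.26. The exon-union lengths of Pitx1 (2451 bases), Tbx1 (2674) and Irx1 (2373) are close. On these lengths, ratios between them are little touched by the length trend. With the locus ends added, Pitx1 has 7242 bases and the lengths of Tbx1 and Irx1 do not change. Ratios with Pitx1 may therefore still carry that trend. This setting only adds bases and never shortens a gene. The deposited Tbx1 locus (18581256 to 18588952) lies inside the annotated gene (18580979 to 18590671). An annotated Tbx1 length that is too long was thus not tested, and ratios with Tbx1 may carry the trend too. The Tbx1 to Irx1 ratio was 17.2 and 133 in mouse PEK and SEK and 2.69 and 2.16 in gerbil E21 and E23. The Pitx1 to Irx1 ratio was 6.94 and 80.4 in mouse and 2.67 and 2.57 in gerbil. Irx1 itself was at 69.5 in PEK and 6.78 in SEK, which raises both SEK ratios. Set against Epcam, an adhesion gene of epithelial cells, the Tbx1 ratio was 2.26 and 1.40 in mouse and 0.420 and 0.152 in gerbil. Set against Cdh1, which encodes E-cadherin, it was 22.9 and 22.9 in mouse and 0.420 and 0.173 in gerbil. All these ratios were higher in both mouse libraries. Pitx1 lies on the minus strand of mouse chromosome 13 (55825027 to 55836192), where an antisense gene, Gm47071, and a long noncoding gene on the same strand, Gm28760, overlap it. No source used here says whether the counting used strand, and reads of these genes may be mixed with those of Pitx1.

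Among the relatives of Tbx1, Tbx2, a repressor of the T-box family, was higher in mouse, at 89.6 and 42.8 in mouse and at 24.2 and 15.6 in gerbil, a log2 difference of -2.43 ± 0.44. Tbx3 was at 25.3 and 12.2 in mouse and 34.8 and 56.0 in gerbil and met neither criterion (-0.23 ± 0.39).

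**Figure D2:**
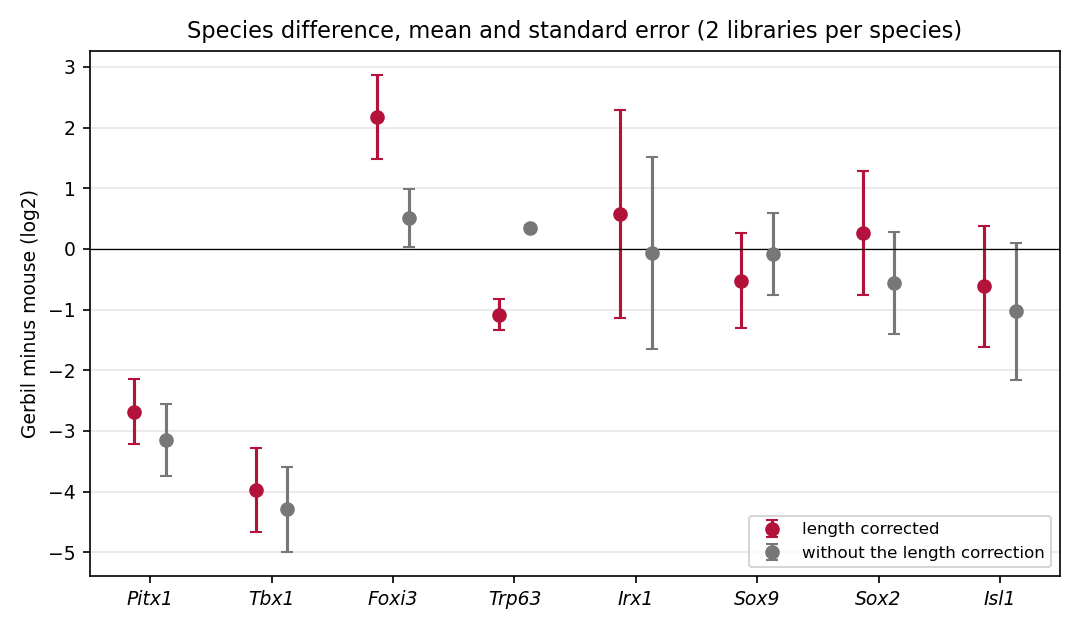
Log2 difference between species (gerbil minus mouse) of the 8 genes, with the length correction (red) and without it (grey), as mean and standard error over 2 libraries per species. Pitx1 and Tbx1 lie below -2 on both scales, Trp63 lies below 0 on one and above 0 on the other, and the error bar of its uncorrected value is smaller than the point.

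Trp63 and Foxi3 had the highest levels of the 8 genes in gerbil, and how they compared with mouse depended on the transcript length used. Trp63 was at 228 in mouse PEK and 191 in SEK, and at 403 and 413 in gerbil E21 and E23. Both gerbil levels were above both mouse levels. With the length correction the log2 difference was -1.08 ± 0.26, and without it 0.35 ± 0.04, and neither met the criterion. Foxi3 was at 132 and 78.1 in mouse and at 295 and 168 in gerbil, again higher in both gerbil libraries. Its log2 difference was 2.18 ± 0.70 and was called, but without the length correction it was 0.51 ± 0.48 and was not. Without that correction 18.5% of all genes were called higher in gerbil, and 0 of the 8 were. Set against Epcam within a library, the Trp63 ratio was 0.431 and 0.297 in mouse and 1.29 and 1.28 in gerbil. The Foxi3 to Epcam ratio was 0.249 and 0.121 in mouse and 0.942 and 0.520 in gerbil. Set against Cdh1, the direction was the opposite. The Trp63 to Cdh1 ratio was 4.37 and 4.86 in mouse and 1.29 and 1.46 in gerbil, and the Foxi3 to Cdh1 ratio was 2.53 and 1.99 in mouse and 0.943 and 0.594 in gerbil. Epcam and Cdh1 themselves differed between species in opposite directions without the length correction (-1.49 and 2.07), and these ratios carry none. Both markers, and the cartilage genes named below, were chosen after their values were seen.

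The length of both genes depends on the gene model. For Foxi3 the annotation gives an exon union of 1281 bases, and the deposited mouse locus (chromosome 6, 70956315 to 70962655) reaches 216 bases beyond the annotated gene on one side and 1589 on the other. With those bases added to every gene's length, the Foxi3 difference was 0.74 and was not called. For Trp63 (chromosome 16, 25683763 to 25892102) the exon union is 8391 bases and the longest annotated transcript 5366. The Trp63 difference was -0.59 with the longest transcript. Without mouse PEK it was -1.36 and was called higher in mouse. Centred on the epithelial markers, it was -1.61 and again called higher in mouse, while Foxi3 (1.65) was no longer called. With that centring 25% of all genes were called higher in mouse and 6% higher in gerbil. The Foxi3 call also ended with a pseudocount of 5 (1.92) and when low values were not filtered (1.66). Without mouse SEK the Foxi3 difference was 1.62, and without mouse PEK it was 2.71.

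**Figure D3:**
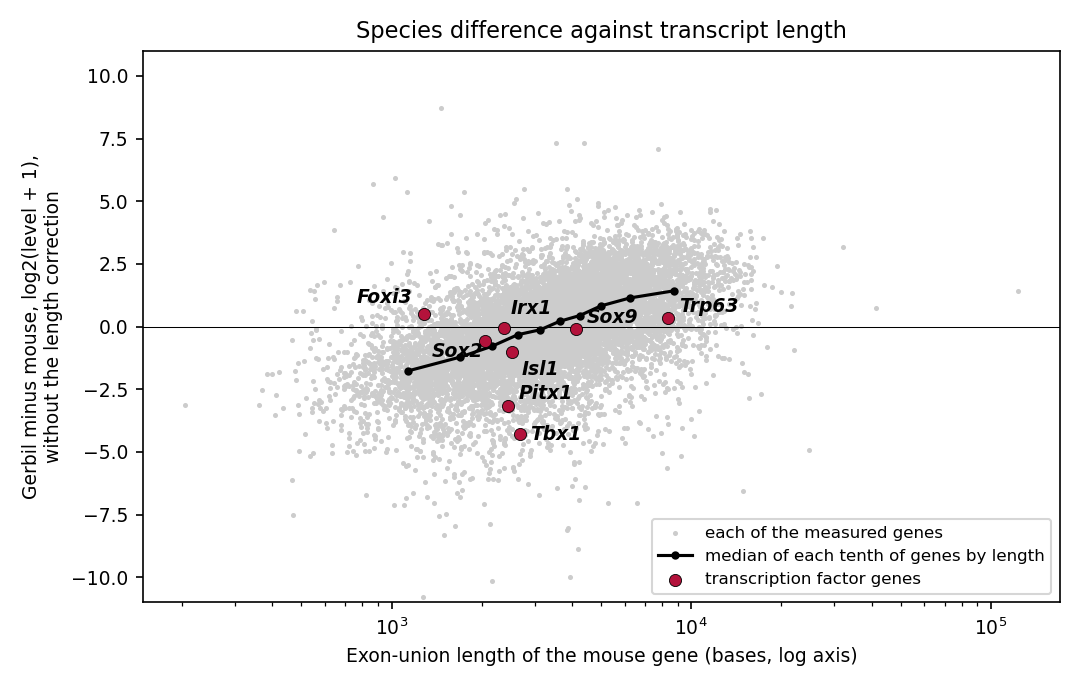
Log2 difference between species without the length correction against the exon-union length of the mouse gene (log axis), with all 10328 measured genes in grey, the 8 genes in red and the median of each of 10 equal groups of genes by length as a line. The line rises from -1.77 in the group of shortest genes to 1.43 in that of the longest, Pitx1 and Tbx1 lie far below it, and Foxi3 lies above it.

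In mouse, Tbx1 and Pitx1 together made up 78.0% (PEK) and 80.2% (SEK) of the summed level of the 8 genes, and Trp63 and Foxi3 16.7% and 14.9%. In gerbil, Tbx1 and Pitx1 made up 24.0% (E21) and 13.6% (E23), and Trp63 and Foxi3 64.0% and 73.9%. These shares and the order below are of levels with no length correction. The 4 highest genes in both mouse libraries were, in order, Tbx1, Pitx1, Trp63, Foxi3. In gerbil E21 it was Trp63, Foxi3, Tbx1, Pitx1, with Tbx1 and Pitx1 at nearly the same level, and in E23 Sox9, at 69.0, came before both. On the length-corrected log2 scale the order of Trp63 and Foxi3 in gerbil was the other way, with Foxi3 at 8.74 and 7.91 and Trp63 at 7.60 and 7.71 in E21 and E23. On that scale Sox9 (6.998) lay above Foxi3 (5.59) in mouse SEK. Ranks within a library are also of levels with no length correction. They were 92.0 and 89.0 for Trp63 in mouse and 97.0 and 97.2 in gerbil.

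Genes known as targets of p63 in epithelium did not move one way. Of 18 measured, 13 met neither criterion, 3 were called toward gerbil and 2 toward mouse. The called share of 27.8% is near the 28.4% of all genes, and the median log2 difference was -0.34. Col17a1, a collagen of the hemidesmosome, was at 7.11 and 9.60 in mouse and at 139 and 217 in gerbil (2.61 ± 0.60). The desmosome gene Dsp was at 94.1 and 62.98 in mouse and at 1111 and 957 in gerbil (1.52 ± 0.15). Fermt1, which encodes an activator of integrins, went the other way, at 494 and 271 in mouse and 48.0 and 46.9 in gerbil (-4.33 ± 0.15), as did the basal keratinocyte factor gene Bnc1 (-2.88 ± 0.60). The p63 relatives Trp53 (-0.08 ± 0.52) and Trp73 (0.79 ± 0.50) met neither criterion, although without that correction for length Trp73 was called toward gerbil (1.79).

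On the log2(level + 1) scale, Irx1 varied most of the 8 genes within mouse, while the ratio of levels was larger for Isl1, which was near 0. Irx1 was at 69.5 in PEK and 6.78 in SEK, and at 48.9 and 22.7 in gerbil E21 and E23, so the gerbil levels lay between the mouse ones. The species difference of 0.57 ± 1.71 met neither criterion, and without mouse PEK it was 2.10 and called higher in gerbil. Irx1 lies on mouse chromosome 13 (71957921 to 71963723).

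The other Iroquois genes split in 2 ways between the mouse libraries. Irx2, the neighbour of Irx1 in its gene cluster, was at 146 in PEK and 29.1 in SEK, lower in SEK as Irx1 was. Irx5, of the other Iroquois cluster, was at 39.6 in PEK and 152 in SEK, and Irx3 at 17.9 and 31.3. The length-corrected SEK to PEK log2 differences were -3.26 for Irx1, -2.29 for Irx2, 0.85 for Irx3 and 1.99 for Irx5. The Irx5 to Irx1 ratio was therefore 0.570 in PEK and 22.3 in SEK, while it was 1.12 in gerbil E21 and 2.08 in E23. In gerbil, Irx2 was at 54.3 and 27.7, close to Irx1, Irx5 at 54.7 and 47.3 and Irx3 at 17.1 and 4.16. Irx6 was at 0.220 and 2.04 in mouse and at 4.98 and 16.8 in gerbil, and Irx4 did not pass the filter, at 2.47 or less in all 4 libraries. None of the Iroquois relatives was called between species.

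**Figure D4:**
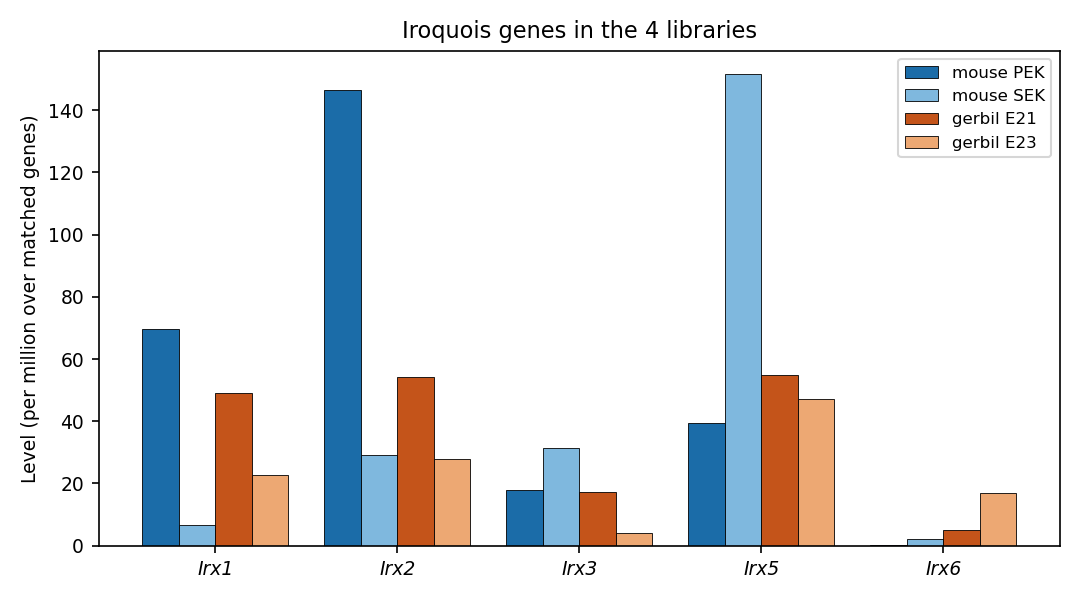
Level of the measured Iroquois genes (scaled to 1000000 over the matched genes) in the 4 libraries, 1 bar per library. Irx1 and Irx2 are high in mouse PEK and low in SEK, and Irx5 is at 39.6 in PEK and 152 in SEK.

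The Sox genes stood apart from each other by their level. Sox9 was at 33.6 in mouse PEK and 75.6 in SEK, and at 77.3 and 69.0 in gerbil E21 and E23. Of these levels only that in PEK was low. On the length-corrected log2 scale SEK (6.998) instead lay above PEK (5.42), E21 (5.76) and E23 (5.63). The species difference on that scale, -0.52 ± 0.79, met neither criterion. Sox2 was at 9.20 and 1.89 in mouse and at 3.92 and 5.44 in gerbil, with the gerbil levels between the mouse ones (0.26 ± 1.02). It ranked between the 12.3 and 26.4 percentiles in the 4 libraries. The mouse Sox2 gene (chromosome 3, 34650405 to 34652461) lies within the long noncoding gene Sox2ot on the same strand, so reads of the 2 genes may be mixed. The Sox2 to Sox9 ratio was 0.274 in PEK and 0.0250 in SEK, and 0.0507 and 0.0788 in gerbil. Without mouse PEK, Sox2 was called higher in gerbil (1.24) and Sox9 higher in mouse (-1.32). That Sox9 call was made on the length-corrected scale, and the level in SEK lay between the gerbil levels. Over all 4 libraries the Sox9 difference without the length correction was -0.09 ± 0.67.

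Sox9 also marks cartilage. The sum of 11 matched cartilage markers was 126 in PEK, 146 in SEK, 382 in E21 and 232 in E23. Of the 9 that were measured, 2 were at least 2-fold higher in SEK than in PEK and 0 were lower. These counts stand beside 7.49% and 8.50% of all genes, and the median log2 difference of the 9 was -0.02. The cartilage regulator gene Sox5 (1.45) and the matrix gene Hapln1 (2.03) were the 2 higher ones, and Matn4 was at 51.9 in PEK and 94.5 in SEK. Col2a1, the main collagen of cartilage, was at 41.4 in PEK and 15.9 in SEK, and at 266 in E21 and 53.8 in E23. It was the largest part of the cartilage sum in E21. The cartilage matrix genes Acan and Matn1 were at or below 0.346 in all 4 libraries. The part of cartilage in the Sox9 level was not tested. Among relatives, Sox4, known from progenitor cells of many tissues, was higher in mouse, at 387 and 207 against 117 and 67.1 (-3.06 ± 0.40). Sox14, of the Sox family, was at 22.1 in PEK and 2.04 in SEK and was listed at 0 in both gerbil libraries. Sox11 (-1.28 ± 0.45) and Sox8 (-0.45 ± 0.49) met neither criterion. Sox1 was listed at 0 in all 4 libraries, and Sox3, Sox21 and Sox10 did not pass the filter.

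Isl1 was close to absent. It was at 0.0440 in mouse PEK and 3.36 in SEK and at 0.603 and 0.595 in gerbil E21 and E23. It ranked at the 17.7 percentile in SEK and at the 0.988, 5.31 and 4.09 percentiles in PEK, E21 and E23. The species difference of -0.62 ± 1.00 met neither criterion, and without mouse PEK it was -1.64 and called higher in mouse. Isl2, the second Isl gene, was at 9.24 and 4.38 in mouse and was listed at 0 in both gerbil libraries. Isl1 also marks neurons, and the 11 matched neuron markers summed to 54.3 in PEK, 61.6 in SEK, 17.9 in E21 and 17.6 in E23. Of these 11 markers, 0 were listed at 0 in PEK, 1 in SEK, 6 in E21 and 4 in E23, and the part of neurons in the Isl1 level was not tested.

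Within a species, 1 library can be set against 1 library only, which allows no test, and the values are descriptions of these libraries. In gerbil, Pitx1, Tbx1 and Irx1 were more than 2-fold lower in E23 than in E21, which is 3 of 8 genes where 3.59% of all genes were that much lower. None of the 8 was 2-fold higher, against 6.05% of all genes. The log2 difference from E21 to E23 was -1.33 for Tbx1, -1.07 for Pitx1 and -1.03 for Irx1, so the last 2 lay close to the threshold. Without the length correction these differences were -1.39, -1.13 and -1.05. Foxi3 was lower in E23 by less than 2-fold (-0.84).

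Trp63 (0.11), Sox9 (-0.13), Sox2 (0.41) and Isl1 (0.04) were within 2-fold between the gerbil libraries. So were the epithelial gene Epcam (0.07), Irx2 (-0.90) and Shh (0.35), which encodes the main signal of the knot. Markers of other cells moved between the same libraries. The mesenchyme sum was 2213 in E21 and 4186 in E23, the endothelium sum 41.4 and 177, and the epithelium sum 10127 and 8926. Their part in the lower Pitx1, Tbx1 and Irx1 values was not tested. Centred on the epithelial markers, 1 of the 8 genes, Tbx1, was still 2-fold lower in E23.

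In mouse, Irx1, Sox2 and Foxi3 were more than 2-fold lower in SEK than in PEK, and Sox9 and Isl1 more than 2-fold higher. The 3 lower genes stand beside 8.50% of all genes and the 2 higher ones beside 7.49%. The log2 differences from PEK to SEK were -3.26 for Irx1, -2.01 for Sox2, -1.12 for Foxi3, 1.57 for Sox9 and 2.00 for Isl1. For Foxi3 the difference without the length correction was -0.56, under 2-fold. Pitx1 (0.08), Tbx1 (-0.39) and Trp63 (0.50) differed by less than 2-fold. Of 11 enamel knot markers, 7 were at least 2-fold lower in SEK and 0 higher, with a median log2 difference of -1.37. The muscle sum was 138 in PEK and 468 in SEK, with 3 of 8 measured markers at least 2-fold higher and 1 lower. The endothelium sum was 115 and 219, with 4 of 7 measured markers at least 2-fold higher and 0 lower. Most of both sums was Egfl7, at 106 and 189, which differed by less than 2-fold (0.65). Pecam1, Cdh5, Kdr and Emcn were at 4.70 or less in both mouse libraries, and Esam at 1.04 and 10.6. The part of these cells in the mouse library differences was not tested.

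**Figure D5:**
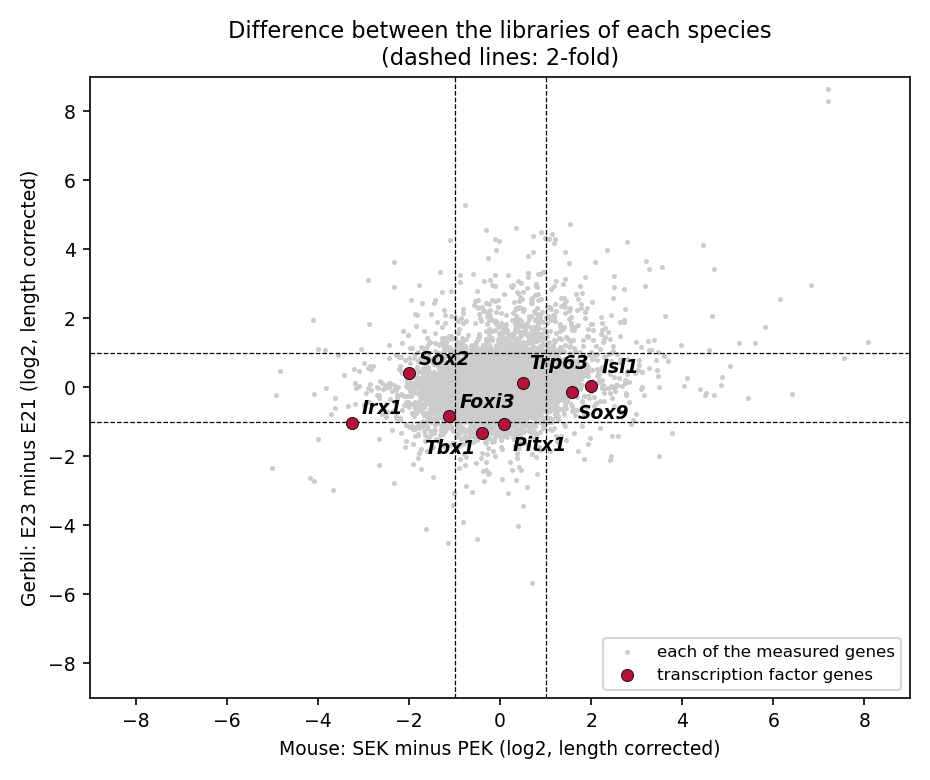
Length-corrected log2 difference between the 2 libraries of each species, mouse SEK minus PEK on the horizontal axis and gerbil E23 minus E21 on the vertical axis, with all 10328 measured genes in grey, the 8 genes in red and dashed lines at 2-fold. Irx1 lies at or beyond 2-fold lower on both axes, and Tbx1 and Pitx1 on the gerbil axis only.

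Other transcription factors of the dental epithelium were more often called higher in mouse than in gerbil. Of 20 measured, 12 met neither criterion, 7 were called toward mouse and 1 toward gerbil, beside 15.0% and 13.5% of all genes, and the median log2 difference was -1.26. Without the length correction 9 were called toward mouse and 3 toward gerbil, beside 19.5% and 18.5%. Foxq1, a forkhead gene, had levels of 17.7 and 12.7 in mouse, a level of 0.528 in E21 and was listed at 0 in E23. The homeobox gene Dlx2 was at 675 and 573 in mouse and at 61.0 and 38.8 in gerbil (-3.82 ± 0.33). Sp6, a zinc finger factor of enamel epithelium, was the 1 gene higher in gerbil, at 11.8 and 16.1 in mouse and 358 and 272 in gerbil (3.47 ± 0.40). Between the gerbil libraries, 5 of these 20 genes were at least 2-fold lower in E23 and 1 was higher, beside 3.59% and 6.05% of all genes. The 16 measured relatives of the 8 genes had 5 calls higher in mouse, 0 higher in gerbil and a median of -1.07.

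The genes with the most similar pattern over the 4 libraries were taken by the smallest root mean square distance of mean-centred log2 values among all measured genes. Nearest to Tbx1 were Pdzd9 (distance 0.07) and Gfra4 (0.10), and nearest to Pitx1 were Fgfbp3 (0.04) and Nxpe4 (0.07). Nearest to Irx1 were Tnf (0.33) and Thbs1 (0.38), farther off than for any other of the 8 genes. For Trp63 they were Anapc5 (0.02) and Zfp410 (0.03), for Foxi3 Msi1 (0.06) and Klf8 (0.09), and for Sox9 Lyrm7 (0.05) and Sp7 (0.07). Sox2 had Ypel4 (0.09) and Npffr1 (0.09), and Isl1 had Klk14 (0.12) and Ttc39a (0.14). Some of these genes were near 0 in gerbil E21 and E23, where the 1 added before the log2 shapes the pattern. Pdzd9 was at 1.66 and 0 there, Fgfbp3 at 0.980 and 0, and Klk14 at 0 in both. Others, such as Anapc5 (360 and 376), were not.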

How the data were processed

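Tools listed in the submitters' processing notes are RSEM 1.3.1, STAR 2.7.1a and cutadapt 2.8, with GRCm38 and mm10 as builds and no link to a table, and no source used here gives a gerbil build. Libraries came from a SMARTer mRNA-Seq kit, per the labels' protocols. The authors deposited FPKM per assembled mouse locus and TPM per gerbil gene. Columns show the species but no sample number, so 1 measure per library was kept. The 4 other gerbil columns of per-sample values (reads and RPKM) were read at first and then dropped for this reason, and no value from them is given. Genes were matched by symbols found once per table (no LOC, Gm or Rik names), and FPKM and TPM were rescaled to 1000000. Kept were genes averaging at least 1 with an exon-union length in GENCODE M21 basic. The running median deviation along length, in 40 bins, was subtracted from log2(level + 1) (pandas 2.3.3, numpy 2.4.6), which was tested on simulated data. The simulation used the same annotated lengths as the correction, so it could not show the effect of a wrong gene length. The members and lists were chosen with earlier results of these data known. Named genes were the members, their relatives, 2 called genes per direction of each list described and the 2 nearest patterns per member. Alternatives changed pseudocount, filter, length, centring, bins, row summing and libraries. Some genes of the lists are not reported here by name.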

Additional observations from a re-analysis of the deposited data

How the results depend on the processing

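Pitx1 and Tbx1 were called higher in mouse in 15 of 16 alternatives each, and Foxi3 higher in gerbil in 10 of 16. Of the 16, 3 were chosen after seeing the data (lengths with locus ends, lengths of the longest transcript, and summed rows without loci above 1000000 FPKM). The planned use of gerbil RPKM was run and then dropped with the gerbil reads, since 1 measure per library was kept. A gene length worked out from those columns, also dropped, had ended the Foxi3 call too. None of the 8 genes (0) was called higher in gerbil with a pseudocount of 5, no filter on low values, no length correction (with or without centring), centring on the epithelial markers or locus ends added. In these settings 6% (centring on the epithelial markers) to 29.4% (no length correction and no centring) of all genes were called higher in gerbil. Summing rows of one symbol before matching left 1 call toward mouse (Sox2, -3.02) and 2 toward gerbil (Foxi3 and Trp63, the latter at 2.47). Of all genes, 24.9% were then called toward mouse and 19.9% toward gerbil. Pitx1 was at 0.56 and Isl1 below the filter, and none of the members (0) was 2-fold apart between the mouse libraries in either direction. A second Parp9 locus then took 99.86% of the PEK total and 99.96% of the SEK total, and without loci above 1000000 FPKM the counts of calls were those reported. Leaving out 1 library gave 2 to 5 calls toward mouse and 1 to 3 toward gerbil. Over all genes these settings called 18.7% to 20.5% toward mouse and 16.6% to 19.3% toward gerbil. All 8 genes were called without mouse PEK, where 1 library stands for mouse. That setting called 20.5% of all genes toward mouse and 19.3% toward gerbil. Genes at least 2-fold higher in SEK than in PEK numbered 1 with a pseudocount of 5 or a minimum of 10 in each species. Genes 2-fold lower in E23 numbered 1 when centred on the epithelial markers. No paired analysis was possible because the columns carry no sample number. The depth behind Isl1 and Sox2, the lowest of the 8 genes, is unknown for mouse and not given here for gerbil.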
